A study of Mus musculus with 10 samples.

Results

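Plasma cell identity was followed through 6 genes, Jchain, Mzb1, Prdm1, Sdc1, Tnfrsf17 and Tnfrsf13b, of the 19505 genes that had a probe set carrying a single gene symbol. They were chosen by symbol, and each was read by 1 probe set of the array. A gene entered the tests when at least 2 of the 10 arrays gave it a signal over that array's 40th percentile. Of the 6 genes, 5 met this, with Jchain, Mzb1, Sdc1 and Tnfrsf13b above that level on 10 of 10 arrays and Prdm1 on 9. Tnfrsf17 exceeded it on 1 array and is given by its values alone.

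The study put CD4+ T cells carrying either of 2 constructs into immunocompromised mice and measured RNA on Affymetrix arrays after 6 months. Vav1 is a signalling protein that acts below the T cell receptor, and its oncogenic form was set against green fluorescent protein (GFP). The groups were oncogenic Vav1 spleen (4 arrays, animals ONCO1 to ONCO4), GFP spleen (2 arrays, CTL2 and CTL4), oncogenic Vav1 lymph node (2 arrays, ONCO2 and ONCO3) and GFP lymph node (2 arrays, CTL1 and CTL2). The 10 arrays came from 7 animals, of which 3 gave both tissues. The labels give the strain as C57BL/10 in every group and the genotypes as WT + Oncogenic Vav1 and WT + GFP. Every animal had received transduced cells. The host's strain and remaining immune cells, the Vav1 mutation, the vector, and the age of the animals are not given in the sources used here.

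All values are log2 signal, so a difference of 1 is a 2-fold change. The arrays had similar medians, between 6.27 and 6.41, and the 40th percentile lay between 5.64 and 5.84. The probe sets that read introns of control genes had medians of 5.43 to 5.55 in oncogenic Vav1 spleens, 5.69 to 5.87 in GFP spleens, 5.27 to 5.57 in oncogenic Vav1 lymph nodes and 5.38 to 5.46 in GFP lymph nodes. Both GFP spleens lay above every other array. A fit with this level as a covariate therefore cannot fully separate it from the GFP spleen group. The labels name CD4+ T cells as the cell type and the tissue as the source, yet each of 11 B cell markers on the array stood above the 40th percentile on all 10 arrays. Their mean lay between 9.51 and 9.67 in oncogenic Vav1 spleens, 10.47 and 10.52 in GFP spleens, 8.95 and 9.69 in oncogenic Vav1 lymph nodes and 9.49 and 9.53 in GFP lymph nodes. In such bulk RNA, fewer cells of a type and less RNA per cell cannot be told apart.

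Plasma cells are the antibody-secreting end stage of B cells. Their formation turns on a small set of regulators, among them the repressor Blimp-1, the product of Prdm1, which silences genes of the B cell state, while Irf4 and Xbp1 activate the secretory program. Their cytoplasm is filled with endoplasmic reticulum in which immunoglobulin chains are folded and joined. Their long survival in spleen and bone marrow depends on the cytokines BAFF and APRIL, which both bind the receptors encoded by Tnfrsf13b and Tnfrsf17. BAFF also binds the one encoded by Tnfrsf13c. None of the 6 genes is restricted to plasma cells: Prdm1 is also active in effector T cells, Mzb1 and Tnfrsf13b in marginal zone B cells, and Sdc1 in epithelia.

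In the spleen, Prdm1 and Sdc1 were higher with oncogenic Vav1, and in the lymph node Jchain, Mzb1 and Sdc1 were. Calls are at an adjusted p under 0.05 in limma, adjusted over all 13393 genes tested. The members called higher were 2 of 5 in the spleen, where 17.1% of all genes tested were called higher, and 3 of 5 in the lymph node, where 7.87% were. Over both tissues 4 of 5 were called higher, against 17.4% of all genes tested. No member was called lower in any of these comparisons, although Tnfrsf13b in spleen had an unadjusted p of 0.037, where 9.77% of genes were called lower in the spleen, 10.8% in the lymph node and 14.3% over both tissues. Of the genes called in the spleen 63.6% were higher, and 45.7% were after quantile normalization. The members share their arrays, and the GFP and oncogenic Vav1 groups were small, so these shares describe the members only. Leaving out both ONCO3 arrays, or any array outside the oncogenic Vav1 spleens, left a single array in a group. That group's spread was then taken from the other groups, so calls and counts in such fits do not measure it.

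**Figure D1:**
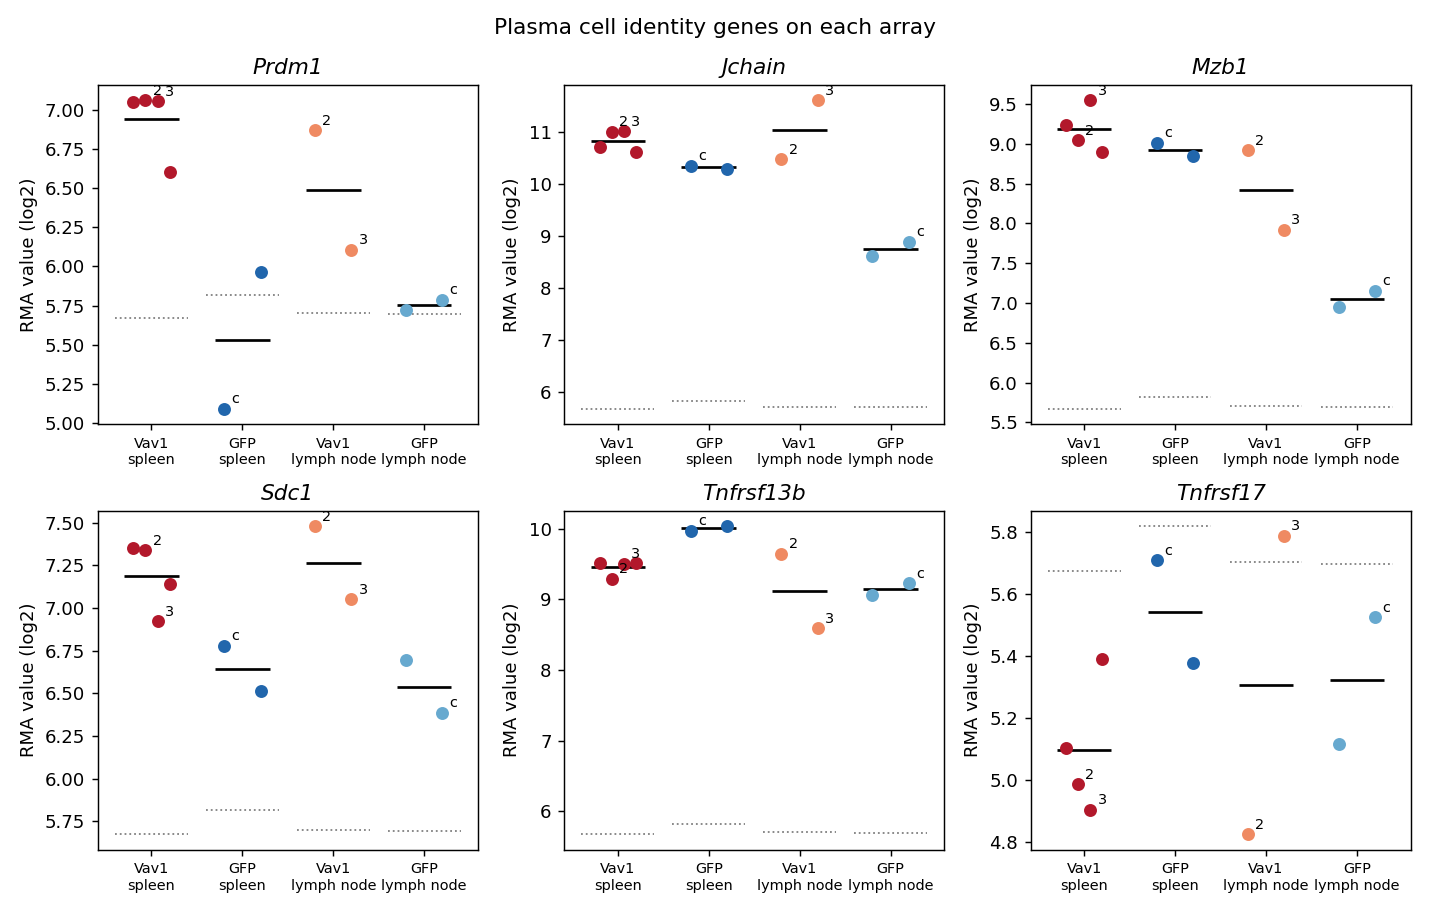
Log2 signal of the 6 plasma cell genes, 1 panel a gene, for oncogenic Vav1 spleen, GFP spleen, oncogenic Vav1 lymph node and GFP lymph node. Points are arrays, the black bar is the group mean, the dotted grey line is the group's mean 40th percentile, and the marks 2, 3 and c are the animals ONCO2, ONCO3 and CTL2, which gave both tissues. Jchain in lymph node lies at 10.48 and 11.61 in oncogenic Vav1 and at 8.61 and 8.89 in GFP, while Tnfrsf17 lies near or below the dotted line in every group.

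Prdm1, the regulator of the set, was higher in the spleen. Its log2 signal was 7.05, 7.06, 7.05 and 6.60 in the oncogenic Vav1 spleens, against 5.09 and 5.97 in the GFP spleens. Every oncogenic Vav1 spleen lay above both GFP spleens, as did those of 30.3% of all genes tested, and the GFP spleen of CTL2 lay below the 40th percentile of its array. The measured difference was 1.41 (SE 0.27, adjusted p = 0.0045). As only 1 of the 2 GFP spleens was above that level, it is read as a lower bound, with the GFP array below the percentile raised to it: at least 2.05-fold higher. In the lymph nodes Prdm1 stood at 6.87 and 6.11 with oncogenic Vav1, against 5.72 and 5.79 with GFP, which lay only 0.019 and 0.10 above the 40th percentile. These groups did not overlap either, which was so for 24.2% of the genes tested, but the difference of 0.73 (SE 0.31, adjusted p = 0.14) did not pass the test. Over both tissues it was 1.17 (SE 0.19, adjusted p = 0.0013), a size that includes the GFP spleen array below the percentile and the GFP lymph nodes close to it. The spleen call was lost without GFP spleen replicate 1 (0.97, adjusted p = 0.071) and, with the value down to 0.61 (adjusted p = 0.27), when the intronic control level was a covariate. The lymph node difference was 1.12 without oncogenic Vav1 lymph node replicate 2 and 0.35 without replicate 1, each with a single array left in that group.

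Jchain, which encodes the chain that joins IgM and IgA into polymers, differed most in the lymph node. The oncogenic Vav1 lymph nodes stood at 10.48 and 11.61, against 8.61 and 8.89 in the GFP lymph nodes. Both oncogenic Vav1 arrays lay well above both GFP arrays, a separation that 24.2% of the genes tested showed in that direction. The difference was 2.29 (SE 0.30, adjusted p = 0.00055), a 4.90-fold change exceeded by 0.918% of the genes tested. In the 10 fits that left out 1 array it lay between 1.72 and 2.86. With the 4 lymph node arrays fitted alone its adjusted p was 0.065. In the spleen Jchain stood at 10.71, 11.01, 11.02 and 10.62 with oncogenic Vav1, against 10.36 and 10.30 with GFP. The groups did not overlap, as for 30.3% of the genes tested, but the gap was small, and the difference of 0.51 (SE 0.26, adjusted p = 0.16) did not pass the test. It passed in 6 of 22 alternatives, among them the one with the intronic control level as a covariate (1.33, adjusted p = 0.032). The fits that left out either lymph node array of oncogenic Vav1, and so kept a single array there, gave 0.51 as well. Over both tissues the difference was 1.32 (SE 0.29, adjusted p = 0.0062), which averages unlike measured differences of 0.51 in spleen and 2.29 in lymph node.

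Mzb1 encodes a protein of the endoplasmic reticulum that assists the assembly of antibody. Its lymph node values were 8.92 and 7.92 with oncogenic Vav1, against 6.94 and 7.16 with GFP. The groups did not overlap (24.2% of the genes tested), and the oncogenic Vav1 arrays lay further apart from each other than the GFP arrays. The difference was 1.37 (SE 0.29, adjusted p = 0.0095), exceeded by 3.06% of the genes tested. It was lost without GFP lymph node replicate 1 (1.26, adjusted p = 0.087) or replicate 2 (1.48, adjusted p = 0.051), and with the lymph node arrays alone (adjusted p = 0.14). In the spleens Mzb1 stood at 9.23, 9.04, 9.55 and 8.90 with oncogenic Vav1, against 9.01 and 8.84 with GFP. The groups overlapped, and the difference of 0.25 (SE 0.26, adjusted p = 0.48) had a 95% interval of -0.31 to 0.82. Over both tissues Mzb1 was higher by 0.75 (SE 0.21, adjusted p = 0.020), a call lost in 5 of 21 alternatives.

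Sdc1 encodes syndecan-1 (CD138), a heparan sulfate proteoglycan of the cell surface used to identify plasma cells. It stood at 7.35, 7.34, 6.92 and 7.14 in the oncogenic Vav1 spleens, against 6.78 and 6.51 in the GFP spleens. Every oncogenic Vav1 spleen was above both GFP spleens, by a narrow margin for replicate 3, as was so for 30.3% of the genes tested. In the lymph nodes it stood at 7.48 and 7.05 with oncogenic Vav1, against 6.69 and 6.39 with GFP. These groups did not overlap, as for 24.2% of the genes tested. The differences were 0.54 in the spleen (SE 0.18, adjusted p = 0.049) and 0.73 in the lymph node (SE 0.21, adjusted p = 0.036). Both lay close to the threshold: the spleen call was lost in 11 of 22 alternatives and the lymph node call in 8. Among them, the spleen call was lost on leaving out any 1 of the 4 GFP arrays or oncogenic Vav1 spleen replicate 1, 2 or 4, and the lymph node call on leaving out either GFP lymph node array, oncogenic Vav1 spleen replicate 1, 2 or 4, or oncogenic Vav1 lymph node replicate 1. Over both tissues the difference was 0.62 (SE 0.13, adjusted p = 0.0050), and it passed in all 21 alternatives run there.

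**Figure D2:**
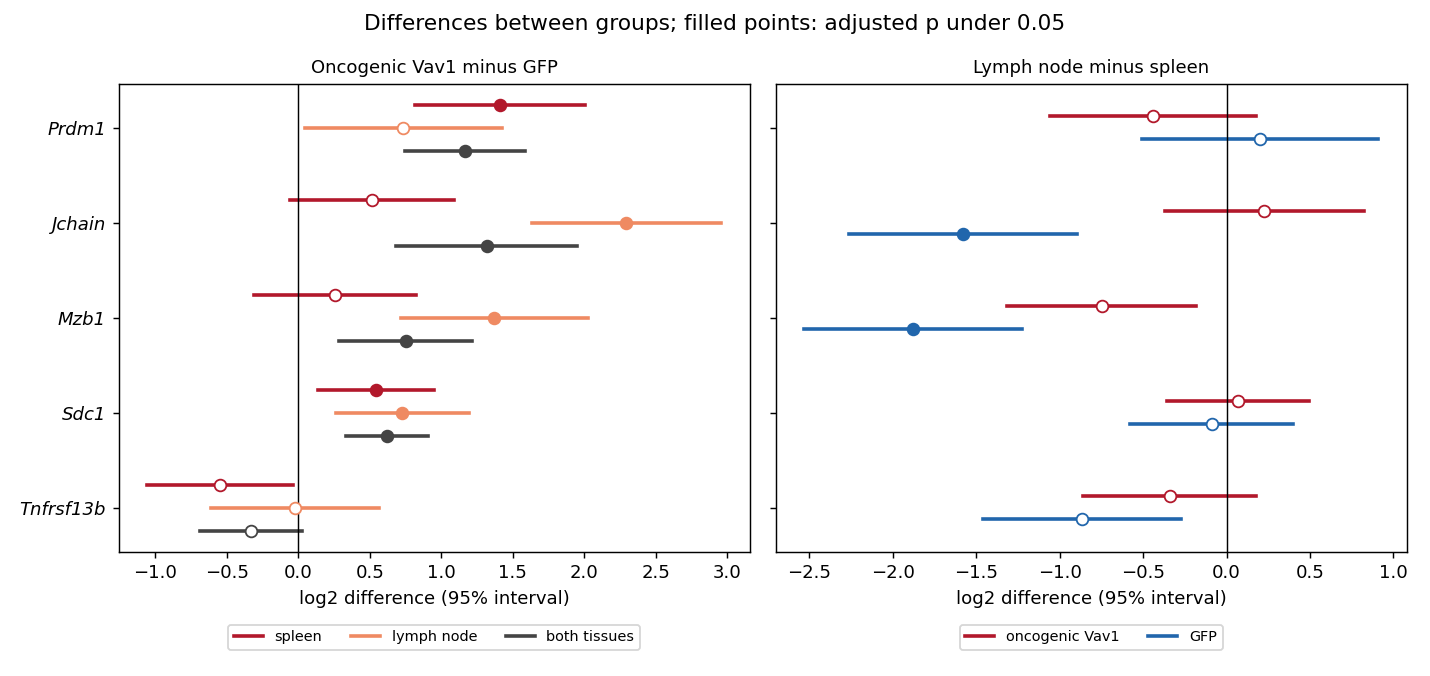
Log2 differences of the 5 tested genes with 95% intervals. The left panel gives oncogenic Vav1 minus GFP in spleen, lymph node and both tissues, and the right panel lymph node minus spleen within each construct, with filled points for an adjusted p under 0.05. Prdm1 reaches 1.41 in spleen, where 1 GFP array was below the 40th percentile, Jchain 2.29 in lymph node, and Tnfrsf13b lies at or below 0 on the left.

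Tnfrsf13b encodes TACI, a receptor for BAFF and APRIL that B cells carry, and it was not called between the constructs in either tissue or over both. In the spleen it stood at 9.51, 9.29, 9.51 and 9.52 with oncogenic Vav1, against 9.97 and 10.04 with GFP. All oncogenic Vav1 spleens lay below both GFP spleens, as was so for 25.2% of the genes tested. The difference of -0.55 (SE 0.23, adjusted p = 0.10) did not pass the test in the model of all groups; it passed in 7 of 22 alternatives, among them the spleen arrays alone (adjusted p = 0.0020) and quantile normalization (-0.72, adjusted p = 0.038). In the lymph nodes it stood at 9.65 and 8.60 with oncogenic Vav1, against 9.06 and 9.23 with GFP. The 2 oncogenic Vav1 arrays lay on either side of the GFP arrays, where 28.8% of the genes tested had both below, and the difference was -0.022 (SE 0.26, adjusted p = 0.97). Its direction depended on which single oncogenic Vav1 array was kept: 0.50 without replicate 2, and -0.55 without replicate 1.

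Tnfrsf17 encodes BCMA, the BAFF and APRIL receptor of mature plasma cells. Its log2 signal was 5.10, 4.99, 4.90 and 5.39 in the oncogenic Vav1 spleens, against 5.71 and 5.38 in the GFP spleens, and 4.82 and 5.79 in the oncogenic Vav1 lymph nodes, against 5.12 and 5.53 in the GFP lymph nodes. Only oncogenic Vav1 lymph node replicate 2 passed the 40th percentile of its array, by 0.07, so no order is read from these values.

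The starts of Jchain, Prdm1 and Sdc1 are shown because these genes kept their call over both tissues in every alternative run. Each line is 300 bases of RefSeq GRCm38.p6, from 250 bases before to 50 bases after the annotated start, 5′ to 3′ on the gene's own strand. Capitals mark matches on either strand to motifs chosen with results known: the octamer ATTTGCAT, the letters GAAAG found in Blimp-1 and interferon regulatory factor sites, the letters ACGTG found in Xbp1 sites, the TATA box letters TATAA and the GC box GGGCGG. Jchain lies on the minus strand at chr5:88527848-88528147, Prdm1 on the minus strand at chr10:44458699-44458998, and Sdc1 on the plus strand at chr12:8771146-8771445.
Jchain: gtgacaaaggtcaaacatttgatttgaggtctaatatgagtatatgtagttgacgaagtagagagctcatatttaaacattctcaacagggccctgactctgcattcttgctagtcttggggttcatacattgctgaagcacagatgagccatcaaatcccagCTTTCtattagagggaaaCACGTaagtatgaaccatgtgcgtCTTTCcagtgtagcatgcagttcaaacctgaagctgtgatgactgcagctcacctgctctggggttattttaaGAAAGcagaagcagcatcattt
Prdm1: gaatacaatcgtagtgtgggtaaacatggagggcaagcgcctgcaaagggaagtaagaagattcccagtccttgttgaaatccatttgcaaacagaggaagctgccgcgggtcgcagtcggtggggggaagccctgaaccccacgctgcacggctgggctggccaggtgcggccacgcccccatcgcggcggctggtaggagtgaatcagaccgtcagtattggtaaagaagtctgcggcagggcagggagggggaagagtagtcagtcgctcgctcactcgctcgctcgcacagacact
Sdc1: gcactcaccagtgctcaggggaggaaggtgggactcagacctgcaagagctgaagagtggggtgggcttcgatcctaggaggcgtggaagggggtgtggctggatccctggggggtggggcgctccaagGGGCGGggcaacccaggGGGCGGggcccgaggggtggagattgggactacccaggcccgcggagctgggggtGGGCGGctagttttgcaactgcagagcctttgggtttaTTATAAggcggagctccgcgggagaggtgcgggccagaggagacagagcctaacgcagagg
The Jchain window holds 3 GAAAG matches and 1 ACGTG match, and the Sdc1 window 3 GC boxes and 2 overlapping TATAA matches, 1 on each strand. The Prdm1 window holds none of these letters, and none of the 5 members' windows holds the octamer. Over 32851 windows of the same length, GAAAG occurred in 57.3%, ACGTG in 19.6%, TATAA in 24.9%, GGGCGG in 35.7% and ATTTGCAT in 1.74%. The Mzb1 window was not used here.

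Jchain and Mzb1 also separated the tissues, in GFP animals. GFP lymph nodes stood below GFP spleens, with a log2 difference of -1.58 for Jchain (SE 0.31, adjusted p = 0.0059) and -1.88 for Mzb1 (SE 0.29, adjusted p = 0.0016). These were the 2 of 5 members called lower, in a comparison where 4.41% of all genes tested were called lower and 11.6% higher. Of the genes called there 72.5% were higher, against 53.8% after quantile normalization and 59.7% with arrays centred on their median. Tnfrsf13b had -0.87 (SE 0.27, adjusted p = 0.052), and it passed in 9 of 22 alternatives. Prdm1 (0.20, adjusted p = 0.72) and Sdc1 (-0.09, adjusted p = 0.82) did not pass the test. The Jchain call was lost without GFP lymph node replicate 1 (-1.43, adjusted p = 0.080) and with the intronic control level as a covariate (-0.68, adjusted p = 0.072).

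Within oncogenic Vav1, no member was called between lymph node and spleen, where 0.0373% of all genes tested were called. Mzb1 had -0.75 (SE 0.26, unadjusted p = 0.015, adjusted p = 0.53), and Jchain had 0.23 (SE 0.27, adjusted p = 0.75). These values depended on oncogenic Vav1 lymph node replicate 1, without which replicate 2 from ONCO3 was the only lymph node array of that group. With that single array set against the spleens, Jchain was higher in lymph node by 0.75, and Mzb1 (-1.30), Prdm1 (-0.85) and Tnfrsf13b (-0.87) were lower. Set within the animals that gave both tissues, Jchain in lymph node minus spleen was -0.53 in ONCO2, 0.59 in ONCO3 and -1.46 in CTL2. ONCO3 alone had more Jchain in the lymph node than in the spleen. Mzb1 was -0.13 in ONCO2, -1.63 in ONCO3 and -1.86 in CTL2, so it was lower in the lymph node of all 3. Prdm1 was -0.19 in ONCO2, -0.95 in ONCO3 and 0.69 in CTL2, whose spleen array lay below the 40th percentile.

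The construct difference was itself compared between tissues. Jchain differed more in lymph node than in spleen by 1.81 (SE 0.41, adjusted p = 0.023), exceeded by 0.314% of the genes tested. It was the 1 of 5 members called higher, against 0.933% of all genes tested, and no member was called lower, against 7.11%. Of the genes called there 11.6% were higher, and 28.0% were after quantile normalization. For Mzb1 the same quantity was 1.13 (SE 0.39, adjusted p = 0.10), for Tnfrsf13b 0.53 (SE 0.36, adjusted p = 0.39), for Sdc1 0.16 (SE 0.29, adjusted p = 0.77), and for Prdm1 -0.64 (SE 0.42, adjusted p = 0.38). Prdm1 was called in the spleen and not in the lymph node, but its 2 differences were not shown to differ with all arrays in the fit. With replicate 1 of the oncogenic Vav1 lymph nodes left out the Prdm1 value was -1.10, and with replicate 2 left out Mzb1 had 1.63 and Tnfrsf13b 1.06. Each of these fits kept a single oncogenic Vav1 lymph node array. The Jchain call was lost in 7 of 21 alternatives: with any 1 of the 4 GFP arrays left out, with oncogenic Vav1 spleen replicate 1 or 4 left out, and with the intronic covariate (1.07, adjusted p = 0.052), while its value stayed between 1.07 and 2.32.

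Oncogenic Vav1 lymph node replicate 2, from ONCO3, stood apart. It had the highest Jchain of all 10 arrays and less Mzb1, Prdm1, Sdc1 and Tnfrsf13b than the other array of its group. The mean of the 6 erythroid markers on the array was 10.96 there, against 8.92 in oncogenic Vav1 replicate 1. The mean of the 8 platelet genes was 8.35 there and 7.55 in replicate 1, of the 11 B cell markers 8.95 and 9.69, and of the 11 T cell markers 7.99 and 8.97. Without both ONCO3 arrays the oncogenic Vav1 lymph node group held a single array, so only the sizes of the differences are given here. Calls and counts from that fit are listed only among the processing alternatives, and calls gained there are not read as results. In lymph node Jchain was then 1.72, Mzb1 1.87, Sdc1 0.94, Prdm1 1.12 and Tnfrsf13b 0.50. The Jchain difference between tissues was 1.24.

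The genes most like each member were found by the root mean square difference of log2 signal over the 10 arrays, after each gene was centred on its own mean, among 12900 tested genes. The genes nearest to Jchain were Gp6 at 0.185, Tubb1 at 0.225 and Alox12 at 0.260, where the median gene lay at 0.930. Gp6 encodes a collagen receptor of platelets, Tubb1 a tubulin of platelets and Alox12 the platelet-type lipoxygenase. In the lymph node Tubb1 was higher by 1.98 with oncogenic Vav1. Alox12 lay below the 40th percentile on both GFP lymph nodes, so its difference is a bound, at least 2.82-fold higher. Gp6 lay below that percentile on both GFP lymph nodes, on both GFP spleens and on 1 of the 2 oncogenic Vav1 lymph nodes. Only 2 of the 4 oncogenic Vav1 spleens were above it. No size is given for Gp6, and its likeness to Jchain rests largely on values below that level. Platelet and megakaryocyte genes were therefore added as a list after these neighbours were seen. Their mean over 8 genes was 7.40 to 8.00 in oncogenic Vav1 spleens, 7.45 to 7.52 in GFP spleens, 7.55 to 8.35 in oncogenic Vav1 lymph nodes and 6.47 in both GFP lymph nodes. In the lymph node 4 of 8 rose and none fell, with Ppbp, a platelet chemokine, at least 19.2-fold higher (adjusted p = 6.1e-05), a bound since both GFP lymph nodes (4.95 and 4.76) lay below the 40th percentile. In the spleen none of the 8 passed in either direction, before adjustment either. Of all genes tested 7.87% were called higher in the lymph node and 17.1% in the spleen. The part of platelets or of erythroid cells in the Jchain differences was not tested.

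Mzb1 lay nearest to Pou2af1 at 0.275, a coactivator of octamer-driven genes in B cells, then Cdh17 at 0.276 and Asb2 at 0.279, where the median gene lay at 0.881. Prdm1 lay nearest to Epb41l3 at 0.167, Cadm1 at 0.198 and Apobec2 at 0.204, with a median of 0.704, though Apobec2 lay below the 40th percentile on all 4 GFP arrays. Sdc1 lay nearest to Nop16 at 0.109, Tdp1 at 0.112 and Xbp1 at 0.117, with a median of 0.438. Xbp1 is a regulator of secretory cells and was one of the genes listed as plasma cell factors. Tnfrsf13b lay nearest to Rubcnl at 0.0804, Rubcn at 0.0931 and Ceacam1 at 0.101, with a median of 0.464. Between members the smallest such difference was 0.464, for Prdm1 and Sdc1, and the largest 0.985, for Jchain and Tnfrsf13b.

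**Figure D3:**
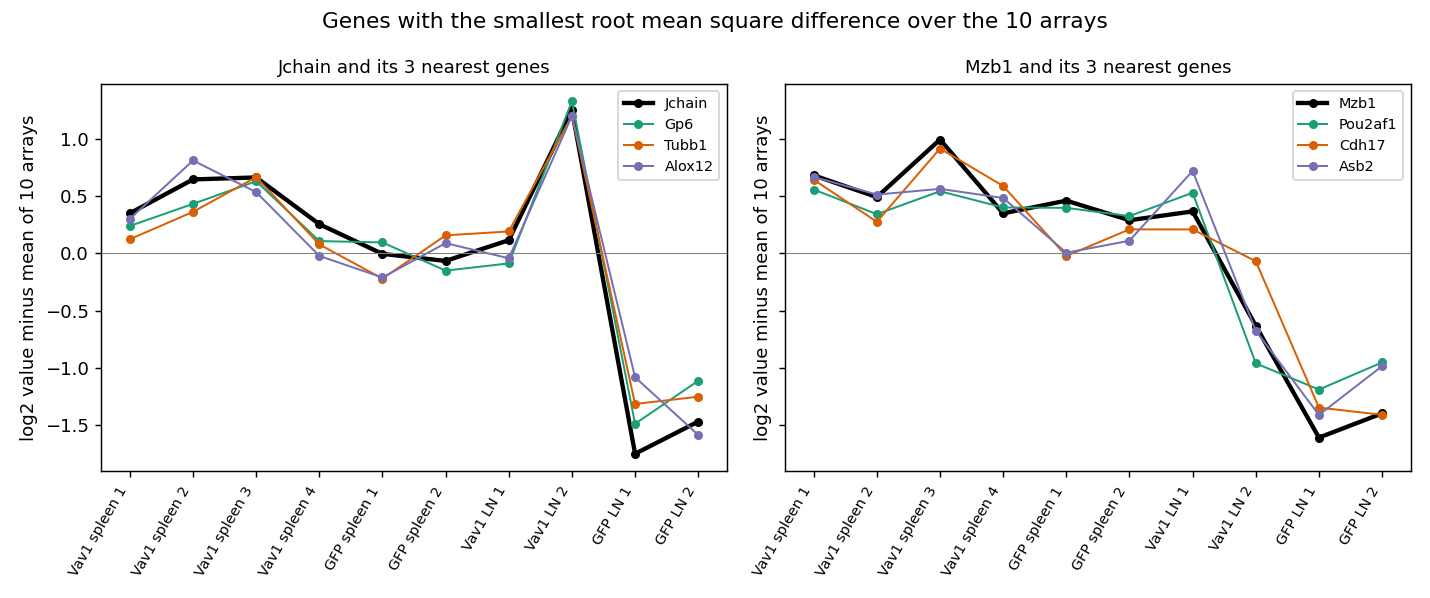
Centred log2 signal of Jchain (left) and Mzb1 (right), in black, and of the 3 genes nearest to each on the 10 arrays, in the order oncogenic Vav1 spleen, GFP spleen, oncogenic Vav1 lymph node and GFP lymph node (LN). Lines only join the points of 1 gene. Jchain runs with Gp6, Tubb1 and Alox12, which differ from it by 0.185 to 0.260, and all are lowest on the GFP lymph node arrays, where Gp6 and Alox12 lie below the 40th percentile.

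Among the other regulators of plasma cells, Xbp1 and Ell2 rose in both tissues. Xbp1 was higher by 0.71 in the spleen (SE 0.13, adjusted p = 0.0038) and by 0.82 in the lymph node (SE 0.15, adjusted p = 0.0039). Ell2, an elongation factor that favours secreted immunoglobulin mRNA, was higher by 0.94 in the spleen (SE 0.18, adjusted p = 0.0042) and by 1.01 in the lymph node (SE 0.20, adjusted p = 0.0067). Of 7 tested factors, 2 rose and 1 fell in the spleen, with a median difference of 0.29, and 3 rose and none fell in the lymph node, with a median of 0.72. The one that fell was Irf4, which plasma cells require, by 0.47 (log2 difference -0.47, SE 0.13, adjusted p = 0.024), and Atf6, a sensor of endoplasmic reticulum stress, was the third that rose in the lymph node, by 0.72 (SE 0.15, adjusted p = 0.0089). The number that rose in the lymph node was smaller without GFP lymph node replicate 1 and larger without both ONCO3 arrays. Each of these fits kept a single array in a group, so no count is given. The median over all genes tested was 0.0019 in the spleen and -0.015 in the lymph node. Of all genes tested 17.1% were called higher and 9.77% lower in the spleen, and 7.87% higher and 10.8% lower in the lymph node. These shares stand beside the counts of every list below.

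Blimp-1 and its partners are known to lower genes of the B cell state as plasma cells form. Of 12 such genes tested, 5 fell and 1 rose in the spleen (median -0.48), and 2 fell and 1 rose in the lymph node (median -0.026). Among all genes tested 9.77% fell and 17.1% rose in the spleen, and 10.8% fell and 7.87% rose in the lymph node. Pax5, the factor that holds B cell identity, had -1.10 in the spleen (SE 0.25, adjusted p = 0.0092) and -0.07 in the lymph node (adjusted p = 0.89). Ebf1 had -1.52 in the spleen (SE 0.12, adjusted p = 8.9e-05) and -0.77 in the lymph node (SE 0.14, adjusted p = 0.0041). Bach2, a repressor of Prdm1 in B cells, had -0.73 in the spleen (SE 0.22, adjusted p = 0.034) and -0.51 in the lymph node (adjusted p = 0.20), and Bcl6, which also represses it, was not called in either tissue. The gene that rose in both tissues was Myc, by 0.50 in the spleen and 0.56 in the lymph node. Of 11 B cell markers, a list that shares Pax5, Ebf1, Ms4a1 and Cd22 with these 12 genes, 8 fell in the spleen (median -1.01) and 1 in the lymph node (median -0.15). More B cell markers and program genes fell in the lymph node without oncogenic Vav1 lymph node replicate 1, and more rose without replicate 2. Each fit kept a single array in that group, so no counts are given. As Pax5 and Ebf1 are in both lists, the marker count is not a separate measure for them. The part of B cells in the falls of Pax5, Ebf1 and Bach2 was not tested.

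Most genes of the secretory pathway rose in the spleen. Of 22 tested, 16 rose and none fell there in limma, with 0 lower at an unadjusted p under 0.05 (median 0.64), while 7 rose and 1 fell in the lymph node (median 0.35). Among all genes tested 17.1% rose in the spleen and 7.87% in the lymph node, while 9.77% and 10.8% fell. Creld2, a protein of the endoplasmic reticulum, was higher by 1.61 in the spleen (SE 0.14, adjusted p = 0.00015) and by 1.19 in the lymph node (SE 0.17, adjusted p = 0.00082). Hspa5, the chaperone BiP that binds immunoglobulin heavy chains, was higher by 0.66 in the spleen (SE 0.12, adjusted p = 0.0042) and by 0.62 in the lymph node (SE 0.14, adjusted p = 0.013). Txndc5, a disulfide isomerase, was higher by 1.03 in the spleen and by 1.19 in the lymph node. The spleen count was 2 with the intronic control level as a covariate, and it was also lower without GFP spleen replicate 1. The lymph node count was lower without GFP lymph node replicate 1 or 2 and higher without oncogenic Vav1 lymph node replicate 2. The fits that left out an array kept a single array in a group, so their counts are not given. The one that fell was Dnajb9, at -0.64 in the lymph node (adjusted p = 0.020) and 0.52 in the spleen (adjusted p = 0.020), named after its values were seen. All 14 tested proliferation markers rose in both tissues, with medians of 1.97 in the spleen and 2.24 in the lymph node, and their part in the secretory result was not tested. The constant regions of the immunoglobulin genes were not analysed here, as none of 12 such symbols was among the single-symbol probe sets.

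**Figure D4:**
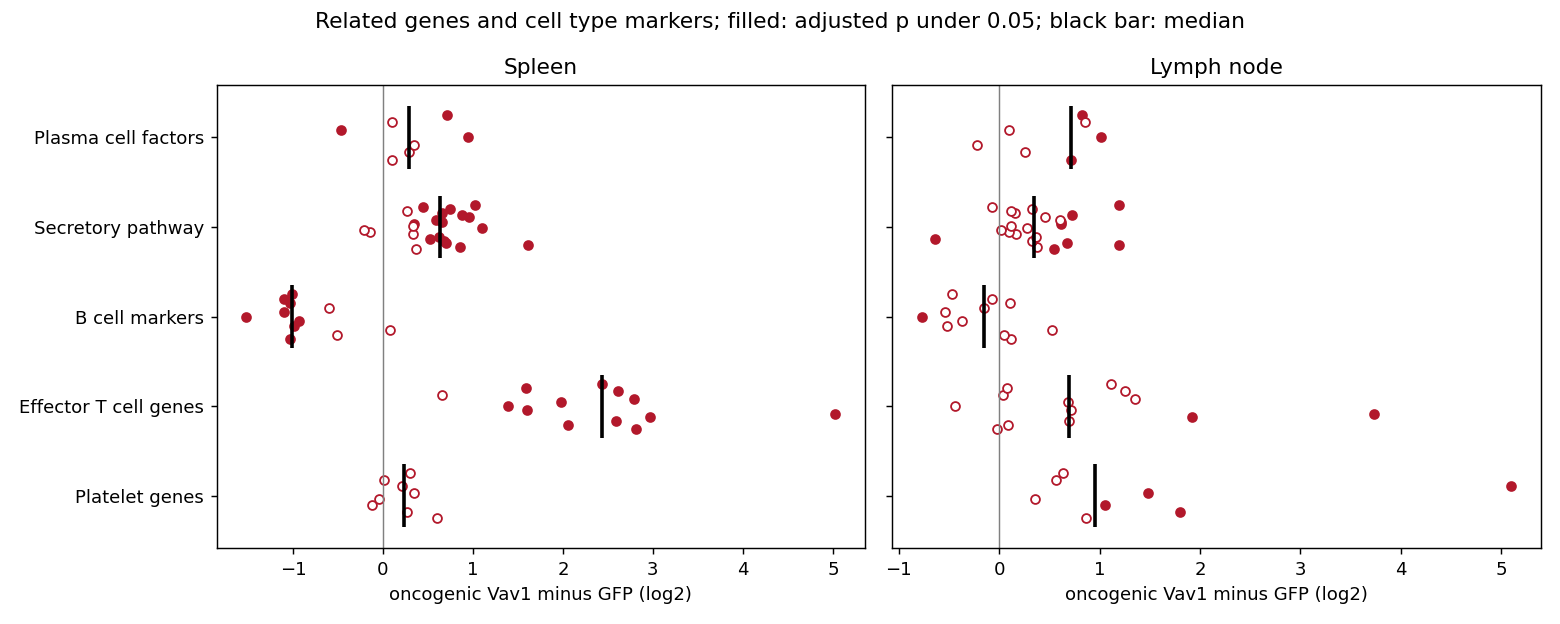
Log2 differences, oncogenic Vav1 minus GFP, of the tested genes of 5 lists in spleen and lymph node: plasma cell factors, secretory pathway, B cell markers, effector T cell genes and platelet genes. Filled points passed at an adjusted p under 0.05, and the black bar is the list median. The secretory pathway genes have medians of 0.64 in spleen and 0.35 in lymph node, and the B cell markers -1.01 in spleen and -0.15 in lymph node.

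Of the BAFF and APRIL system, 8 genes were tested, and 2 rose and 1 fell in the spleen (median 0.061), while none rose and 1 fell in the lymph node (median -0.13), where none was higher at an unadjusted p under 0.05 in limma either. These small counts lie near the shares of all genes tested, where 17.1% rose and 9.77% fell in the spleen and 7.87% rose and 10.8% fell in the lymph node. Tnfsf13b, which encodes BAFF, was higher by 0.83 in the spleen (SE 0.17, adjusted p = 0.0068) and differed by 0.03 in the lymph node (adjusted p = 0.94). Tnfrsf13c, the BAFF receptor of B cells, had -0.41 in the spleen (adjusted p = 0.085) and -0.06 in the lymph node (adjusted p = 0.87). Traf5, an adaptor of this receptor family, fell in both tissues, with -0.52 in the spleen (adjusted p = 0.025) and -0.55 in the lymph node (adjusted p = 0.048). Without either GFP spleen array none of these genes was called in the spleen. Traf1 was the other gene that rose in the spleen, by 0.82 (adjusted p = 0.032).

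Genes that guide plasma cells to their niches and keep them alive moved in both directions. Of 16 tested, 4 rose and 5 fell in the spleen (median -0.15), and none rose and 5 fell in the lymph node (median -0.15), where 2 were higher at an unadjusted p under 0.05 in limma. Among all genes tested 17.1% rose and 9.77% fell in the spleen, and 7.87% rose and 10.8% fell in the lymph node. S1pr1, the receptor by which lymphocytes leave tissues, had -1.44 in the spleen (SE 0.22, adjusted p = 0.0018) and -1.20 in the lymph node (SE 0.26, adjusted p = 0.0093). Cxcl12, a chemokine of stromal niches, had -0.62 in the spleen (adjusted p = 0.054) and -1.17 in the lymph node (SE 0.25, adjusted p = 0.0084). Il10, which T cells as well as plasma cells can make, was at least 2.13-fold higher in the spleen (adjusted p = 0.0025), a bound since both GFP spleens (4.48 and 5.37) lay below the 40th percentile. In the lymph node it lay below that level on both GFP arrays and 1 of the 2 oncogenic Vav1 arrays, and it did not pass the test (adjusted p = 0.26). Without both ONCO3 arrays more of the 16 rose in the lymph node, and without GFP spleen replicate 1 fewer rose and fewer fell in the spleen. Each fit kept a single array in a group, so no counts are given. Fibroblast and fat markers, whose cells also make Cxcl12, fell in the lymph node for 7 of 7 tested, with means of 7.86 to 7.92 in oncogenic Vav1 and 10.07 to 10.09 in GFP lymph nodes. Fewer passed when either GFP lymph node array was left out, with a single array kept in that group. Their part in the Cxcl12 result was not tested.

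Of 9 further plasma cell genes tested, 1 rose and 1 fell in the spleen (median -0.055), and 2 rose and 1 fell in the lymph node (median 0.052). The shares of all genes tested were 17.1% and 9.77% in the spleen, and 7.87% and 10.8% in the lymph node. Fcrl5, an Fc receptor-like protein of B and plasma cells, was at least 4.69-fold higher in the lymph node (adjusted p = 0.0027), where 1 of the 2 GFP arrays lay below the 40th percentile, and had 0.62 in the spleen (adjusted p = 0.20). Slamf7, carried by plasma cells and by cytotoxic lymphocytes, was higher by 0.77 in the spleen (SE 0.20, adjusted p = 0.019). Ly6k fell in both tissues, with -1.83 in the spleen (SE 0.15, adjusted p = 9.7e-05) and -1.45 in the lymph node (SE 0.18, adjusted p = 0.00039). Tent5c, named after its values were seen, was the other gene that rose in the lymph node, by 0.85 (adjusted p = 0.013).

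Sdc1 was also set beside the syndecans and the heparan sulfate enzymes. Of 14 tested, 6 rose and none fell in the spleen (median 0.23), and 1 rose and 2 fell in the lymph node (median 0.061). The shares of all genes tested were 17.1% and 9.77% in the spleen, and 7.87% and 10.8% in the lymph node. Sdc3 was higher by 1.76 in the spleen (SE 0.31, adjusted p = 0.0033) and had 0.03 in the lymph node (adjusted p = 0.97), whereas Sdc2 had -0.22 in the spleen (adjusted p = 0.36) and -0.65 in the lymph node (adjusted p = 0.047). In the spleen none was called with the intronic covariate, and fewer were when GFP spleen replicate 1 was left out. In the lymph node more rose when oncogenic Vav1 replicate 2 was left out. The fits that left out an array kept a single array in a group, so their counts are not given. Sdcbp, which encodes syntenin, the syndecan-binding adaptor, was higher by 0.67 in the spleen (SE 0.13, adjusted p = 0.0045). Of the epithelial markers, whose tissue also carries Sdc1, 4 of 7 were tested, 1 fell in the spleen and none passed in the lymph node in limma (0 at an unadjusted p under 0.05), and the list's mean was 5.46 to 5.63 in oncogenic Vav1 spleens, 5.76 to 5.79 in GFP spleens, 5.47 to 5.58 in oncogenic Vav1 lymph nodes and 5.45 to 5.46 in GFP lymph nodes.

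Markers of the cell types that share a member were counted too, beside shares of all genes tested of 17.1% higher and 9.77% lower in the spleen. In the lymph node those shares were 7.87% and 10.8%. Of 13 genes of effector T cells, which also carry Prdm1, 12 rose in the spleen (median 2.43) and 2 in the lymph node (median 0.69). Their mean was 8.80 to 9.00 in oncogenic Vav1 spleens, 6.51 to 6.53 in GFP spleens, 7.35 to 8.84 in oncogenic Vav1 lymph nodes and 7.17 to 7.30 in GFP lymph nodes. Without both ONCO3 arrays more of the 13 genes rose in the lymph node, but a single oncogenic Vav1 array was left there and no count is given. With the intronic covariate 3 of the 13 rose in the spleen. Of 7 marginal zone B cell markers, which hold Mzb1 and Tnfrsf13b themselves, 2 fell in the spleen and 1, Mzb1, rose in the lymph node. Of 8 plasmacytoid dendritic cell markers, a cell type that also carries Mzb1, 1 rose and 4 fell in the spleen, and 2 fell in the lymph node. Erythroid markers rose in the lymph node for 6 of 6 tested (median 3.75) and for none in the spleen (median 0.93). More plasmacytoid markers fell in the lymph node without oncogenic Vav1 lymph node replicate 1. Some erythroid markers rose in the spleen without replicate 1 or 2 of that group. Those fits kept a single array in it, so no counts are given. Of 4 tested germinal centre B cell markers 3 rose in the spleen and 1 in the lymph node, and of 11 neutrophil markers 10 rose in the spleen and 9 in the lymph node. Of 9 macrophage markers 6 rose and 1 fell in the spleen, and 2 rose and 1 fell in the lymph node, while of 11 T cell markers 1 rose and 1 fell in the spleen and 6 fell in the lymph node. The part of these cells in the results of the plasma cell genes was not tested.

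**Figure D5:**
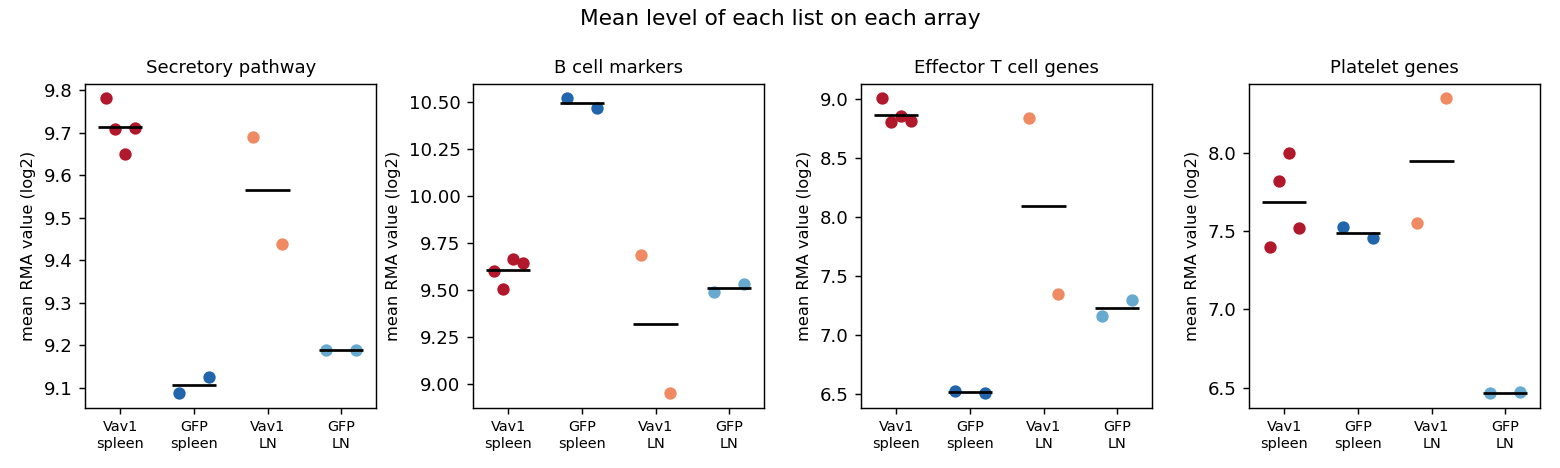
Mean log2 signal of the secretory pathway genes, B cell markers, effector T cell genes and platelet genes on each array, for oncogenic Vav1 spleen, GFP spleen, oncogenic Vav1 lymph node and GFP lymph node (LN). Points are arrays and the black bar is the group mean. Effector T cell genes lie at 8.80 to 9.00 in oncogenic Vav1 spleens and 6.51 to 6.53 in GFP spleens, and platelet genes at 7.55 to 8.35 in oncogenic Vav1 lymph nodes and 6.47 in GFP lymph nodes.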

How the data were processed

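RNA was measured on Affymetrix arrays of 10 samples. The values deposited by the authors are log2 signals; the submitters' processing notes name RMA and R 3.6.3. GEO's platform table gave 19572 of 29129 probe sets a single symbol. The probe set with the highest mean was kept for each of 19505 genes. Genes above the 40th percentile of their own array on at least 2 arrays (13393) were tested in R 4.3.3 by lmFit and eBayes with a variance trend, from limma 3.58.1 (block correlations used statmod 1.5.0), with Benjamini-Hochberg adjustment over all of them and a threshold of 0.05. The spleen and lymph node differences used a model of the 4 groups. The difference over both tissues used tissue and construct, with animal as a random block (consensus correlation -0.354), and comparisons between tissues the 4 groups with that block (correlation -0.113). The value of -0.354 rests on the 3 animals with both tissues, and a negative value narrows the SE of the construct difference over both tissues. Without the block Mzb1 was not called there. Where arrays of the dimmer group lay under the 40th percentile of their array, they were raised to it and the fold is given as a bound. Each comparison was run on simulated data with independent noise on every array, so the animal block was not tested. In each, 100 genes were given a log2 change of 1 and another 100 a change of 2. A simulated log2 change of 1 was called for 74% of the changed genes in the spleen and 67% in the lymph node. For the difference between tissues it was called for 37%, so a difference that did not pass can be missed. Far more genes were called in the real spleen and lymph node fits. The adjustment depends on that share, so the simulated recovery need not hold for them. No columns of the deposited table were identical.

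The arrays came from 7 animals. The spleen and lymph node fits had no animal term, so the 3 animals that gave both tissues entered with both their arrays. Their p-values measure the spread of arrays pooled over the 4 groups, combined with that of other genes, and not the spread between animals alone. The small number of arrays limits the precision. The titles' replicate numbers do not pair animals across constructs: arrays of equal number carry different animal names. The members and lists were chosen with earlier results of these data known, and the platelet list and promoter motifs after values were seen. Genes named are the members, the 3 tested genes nearest to each by root mean square difference, and in each list up to 6 with the smallest p over both tissues, with the regulators and ligands on which a member's role rests. Alternatives changed the filter, normalization, variance model, probe sets, arrays in the fit and blocks, added the intronic control level as a covariate, and left out arrays.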

Additional observations from a re-analysis of the deposited data

Results flagged for a closer look

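In the 4 oncogenic Vav1 spleens, Prdm1 was lowest in replicate 4 at 6.60, while the other arrays lay between 7.05 and 7.06, and this gap took 0.977 of the group's range. Tnfrsf13b was lowest in replicate 2 at 9.29, with the other arrays between 9.51 and 9.52 and a gap of 0.952 of the range. Both gaps passed Dixon's critical value, which chance passes in about 1 group in 20. The difference between oncogenic Vav1 and GFP was larger in lymph node than in spleen for Jchain by 1.81 (SE 0.41, adjusted p = 0.023 in limma), where both oncogenic Vav1 lymph nodes lay above both GFP lymph nodes.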

How the results depend on the processing

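Over both tissues Jchain, Prdm1 and Sdc1 kept their calls in all 21 alternatives, and Jchain in lymph node in 21 of 22. Without the filter Sdc1 in spleen had an adjusted p over the threshold (0.54), and 13 genes were called between tissues within oncogenic Vav1. With quantile normalization Sdc1 in spleen was lost (0.49), and Tnfrsf13b passed in spleen (-0.72) and between GFP tissues (-0.97). With centred arrays Sdc1 in spleen was lost (0.51) and Tnfrsf13b passed between GFP tissues (-0.93). With array weights Jchain in spleen (0.50) and Tnfrsf13b in spleen (-0.56), over both tissues (-0.45) and between GFP tissues (-0.87) passed, Sdc1 in lymph node (0.73) and Mzb1 over both tissues (0.46) were lost, and the genes called were 1264 in lymph node and 3879 between GFP tissues. With arrays of a single tissue or construct Jchain (0.51) and Tnfrsf13b (-0.55) in spleen and Tnfrsf13b between GFP tissues (-0.86) passed, Jchain (2.29), Mzb1 (1.37) and Sdc1 (0.73) in lymph node were lost, and 433 genes were called in lymph node, 3 between oncogenic Vav1 tissues and 4275 between GFP tissues, where the block could not be estimated from 1 pair of arrays. With the animal block changed, Mzb1 over both tissues was lost (0.73), Tnfrsf13b between GFP tissues passed (-0.86) and 9 genes were called between oncogenic Vav1 tissues. With the replicate block Mzb1 over both tissues was lost (0.79), and 1913 genes were called over both tissues and 0 between oncogenic Vav1 tissues in limma (819 at an unadjusted p under 0.05); the numbers mark no shared animal. With the intronic covariate Jchain (1.33) and Tnfrsf13b (-1.28) in spleen, Prdm1 in lymph node (0.73), Tnfrsf13b over both tissues (-0.54), the differences between tissues of Mzb1 (1.57) and Tnfrsf13b (1.16) and Tnfrsf13b between GFP tissues (-1.58) passed, while Prdm1 (0.61) and Sdc1 (0.29) in spleen, the difference between tissues of Jchain (1.07) and Jchain between GFP tissues (-0.68) were lost, Mzb1 in spleen had -0.20, and 916 genes were called in spleen and 94 between oncogenic Vav1 tissues. Without both ONCO3 arrays Jchain (0.45) and Tnfrsf13b (-0.56) in spleen, Prdm1 (1.12) and Tnfrsf13b (0.50, against -0.022) in lymph node, the differences between tissues of Mzb1 (1.74) and Tnfrsf13b (1.08) and Tnfrsf13b between GFP tissues (-0.85) passed, and 5852 genes were called in spleen, 6750 over both tissues, 2734 for the difference between tissues, 41 between oncogenic Vav1 tissues and 4704 between GFP tissues. With 1 array left out in turn, for spleen, 1079 to 5521 genes were called, Jchain had 0.45 to 0.59, Prdm1 had 0.97 to 1.85, Sdc1 had 0.41 to 0.68, Tnfrsf13b had -0.58 to -0.49. For lymph node in those fits, 943 to 4651 genes were called, Mzb1 had 0.87 to 1.87, Prdm1 had 0.35 to 1.12, Sdc1 had 0.51 to 0.94, Tnfrsf13b had -0.55 to 0.50. Over both tissues, 2107 to 6106 genes were called, Mzb1 had 0.53 to 0.93, Tnfrsf13b had -0.55 to -0.18. For the difference between tissues 326 to 4205 genes were called, Jchain had 1.18 to 2.32, Mzb1 had 0.57 to 1.63, Prdm1 had -1.10 to -0.22, Tnfrsf13b had -0.014 to 1.06. Between oncogenic Vav1 tissues 3 to 3810 genes were called, Jchain had -0.38 to 0.75, Mzb1 had -1.30 to -0.25, Prdm1 had -0.85 to -0.085, Tnfrsf13b had -0.87 to 0.21. Between GFP tissues 775 to 4281 genes were called, Jchain had -1.72 to -1.43, Tnfrsf13b had -0.94 to -0.78. The cause of these changes was not tested. Fits that left a single array in a group, among them the fit without both ONCO3 arrays, took that group's spread from the other groups. Calls and counts in those fits do not measure that spread, so a call gained there is not read as a result. Signal over background limits Tnfrsf17 and Prdm1 in GFP arrays.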
